A study of Mus musculus with 8 samples.

Results

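The libraries of this RNA sequencing series carry numbers, and the aortas numbered 2 and 4 are set here against those numbered 1 and 3. All 8 libraries of the series take part: 4 even-numbered and 4 odd-numbered, with 2 of each in either genotype. The thoracic aortas came from male C57BL/6 mice aged 24 weeks. Every mouse carried Myh11-CreERT2, a Cre recombinase under a smooth muscle promoter that acts only after tamoxifen, and the mT/mG colour reporter, and received tamoxifen at 1.5 weeks. Controls were Tsc1+/+. The knockouts (Tsc1-/-) were Tsc1fl/fl, so that Cre could remove Tsc1 in cells that express Myh11, while other cells of the wall kept the gene. Tsc1 encodes hamartin, a brake on the growth kinase mTORC1. The labels give the number of a library and no hour of death, cage, litter or day of preparation for it, and so do not say what even and odd numbers stand for. The labels name smooth muscle cells, but frozen whole vessels were crushed without a sort, which gives RNA of all layers of the wall and of any tissue left on it. No label says that mice were pooled, so each library is taken as 1 mouse. Otherwise the spread is that between samples, which may be technical.

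The division was chosen from these same libraries, because it lines up with their second principal component. That component held 16.6% of the variance of log2(FPKM + 1), and put the odd numbers between -16.9 and -12.1 and the even numbers between 13.4 and 17.8. The first component held 44.8% and parted the genotypes. Even-minus-odd differences are therefore given as a description, with the standard error (SE) of the difference and with no p-value. A test is given for 1 other contrast, namely whether the even-minus-odd difference of a gene is the same in both genotypes. The same libraries chose the division, so the p-values of that test are not free of the choice either. FPKM divide a gene's fragments by its transcript length and by the library's mapped fragments, and differences are on the log2(FPKM + 1) scale, which understates those of low genes.

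**Figure D1:**
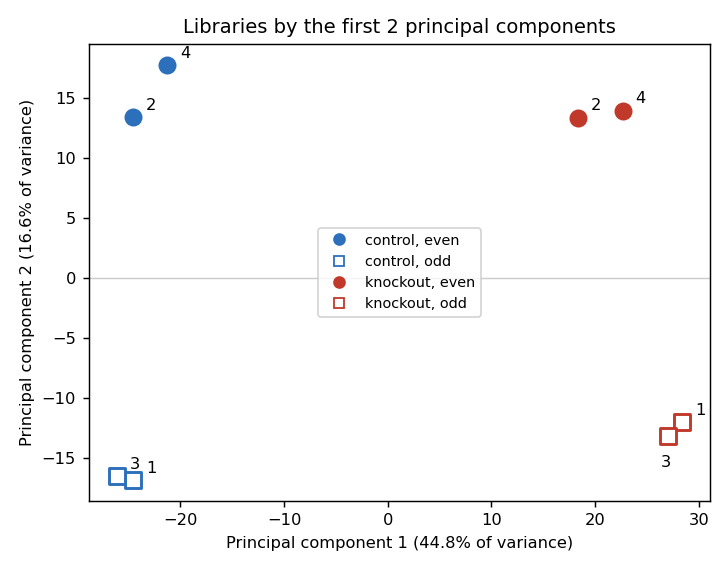
Scores of the 8 libraries on the first 2 principal components of log2(FPKM + 1) over the tested genes, with the share of variance on each axis. Colours mark genotype, open squares odd numbers and filled circles even numbers; odd-numbered libraries lie between -16.9 and -12.1 on the second component and even-numbered ones between 13.4 and 17.8.

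The circadian clock is a loop in which the activators Arntl (BMAL1), Clock and Npas2 switch on their own repressors, the Per and Cry genes and the nuclear receptors Nr1d1 and Nr1d2, and through D-box factors such as Dbp it times many other genes in the vessel wall, feeding and body temperature among its cues. Cytosolic chaperones under heat shock factor, metallothioneins under metals and glucocorticoids, and enzymes of fasting also shift quickly with temperature, stress and food. Aortic smooth muscle, in turn, can lower its contractile proteins and make more matrix and secreted proteins, a change called modulation.

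Facts of the whole series bear on what follows. Tsc1 had 4.03 and 4.95 FPKM in the odd-numbered and 4.82 and 6.32 in the even-numbered controls, and 2.99 and 3.37 against 3.58 and 3.71 in the knockouts, so all 4 knockouts lay below all 4 controls. Between 11867 and 12083 genes reached 1 FPKM in a library. Relative depth, read from the values that single fragments give to low genes, ran from 0.758 (knockout 1) to 2.45 (control 3) with control 1 at 1, and absolute depth is unknown. Markers of tissue around the vessel varied. Summed over 14 striated muscle markers, control 4 had 378 FPKM, and the other 7 libraries had 54.6 to 165. Its skeletal myosin Myh1 stood at 10.8 FPKM, against 0.0196 in control 1 and 0 in the other 6. The 6 red blood cell markers summed to 1547 FPKM in control 3, 643 in control 2 and 589.7 in knockout 3, and to between 48.3 and 239 in the rest.

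A gene was counted as higher in the even numbers when, within each genotype, both even-numbered libraries lay above both odd-numbered ones and the mean of the differences in controls and in knockouts was at least 0.5, and as lower by the mirror rule. Among the 12107 genes that averaged 1 FPKM or more, 144 were higher (1.19%) and 195 lower (1.61%). Nothing can be read from these shares, since the contrast chose the division. The limit is on the mean, so a gene can pass with a small difference in 1 genotype. Without a limit on size, 1800 genes were higher (14.9%) and 1177 lower (9.72%), and with a limit of 1 they numbered 14 and 26. The 2 clock lists, with 37 tested genes, supplied 12 higher and 4 lower genes, which leaves 132 higher and 191 lower genes beyond the clock lists. Whether genes outside those lists follow the clock was not tested. Just inside the limit on level was Smpx, with a mean of 1.00031 FPKM, and just outside it 3300002I08Rik, with 0.999758. Both were spread widely over the libraries, from 0 to 3.91 FPKM for Smpx and from 0.349 to 1.97 FPKM for 3300002I08Rik.

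Within the controls alone, 288 genes were at least 0.5 higher without overlap (2.38%) and 314 lower (2.59%). Within the knockouts alone the counts were 328 (2.71%) and 484 (4.0%). The median difference over all tested genes was 0.02 in controls and 0.01 in knockouts. Across the 12107 genes, which are not independent replicates, Pearson's r between the control difference and the knockout difference was 0.255.

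**Figure D2:**
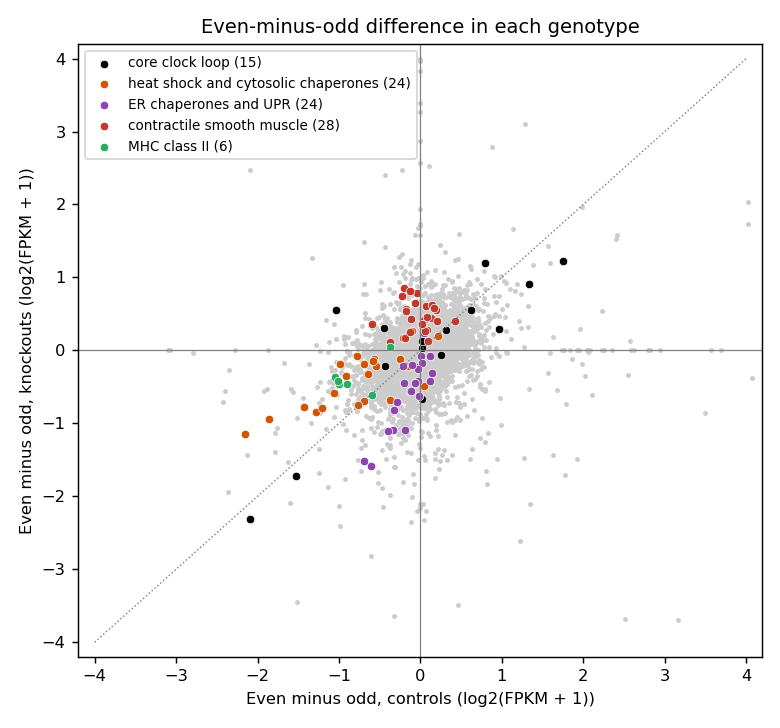
Even-minus-odd difference of each tested gene in controls (horizontal axis) and in knockouts (vertical axis), both on the log2(FPKM + 1) scale, with 5 gene lists in colour and 6 genes beyond the plotted limit of 4.2 left out. Heat shock and MHC class II genes lie to the lower left, with larger differences in controls, while contractile genes spread upward along the knockout axis and ER chaperones downward.

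By the mean of both genotypes, the 3 largest differences among counted genes were those of the clock genes Dbp, Arntl and Nfil3. Dbp, the D-box activator that follows the clock closely, had 6.73 and 4.75 FPKM in the odd-numbered and 102 and 113 in the even-numbered controls, and 20.5 and 27.4 in the odd-numbered and 96.8 and 104 in the even-numbered knockouts. Arntl, the activator of the loop, went the other way, with 16.4 and 19.3 FPKM in odd against 2.52 and 4.53 in even controls, and 10.5 and 11.2 against 1.15 and 1.67 in knockouts. The even-numbered libraries were thus high in Dbp and low in Arntl without overlap in either genotype. The differences were 4.02 in controls and 2.03 in knockouts (SE 0.17 each) for Dbp and -2.09 in controls and -2.31 in knockouts (SE 0.21 each) for Arntl. Of 15 tested genes of the core loop, 5 were counted higher (Per2, Per3, Cry2, Nr1d1 and Nr1d2) and 2 lower (Arntl and Npas2). Of all tested genes, 1.19% were higher and 1.61% lower. Per3, a repressor of the period family, had 2.52 and 2.26 FPKM in odd against 9.39 and 11.5 in even controls, and 2.87 and 3.32 against 8.74 and 8.30 in knockouts. Per1, its partner that also answers to glucocorticoids and stress, was not counted. It had 16.0 and 16.7 FPKM in odd against 40.7 and 10.1 in even controls, and 12.4 and 8.98 against 15.7 and 10.7 in knockouts, so that control 2 alone was high. Of 22 tested output and clock-linked genes, 7 were higher (Dbp, Tef, Hlf, Bhlhe41, Ciart, Usp2 and Tspan4) and 2 lower (Nfil3 and Leo1), beside those same shares. Bhlhe41, a repressor at E-boxes, had 2.38 and 2.40 FPKM in odd against 7.76 and 10.5 in even controls, and 3.01 and 3.99 against 9.71 and 12.6 in knockouts. Nfil3, a repressor at D-boxes, had 25.4 and 31.1 FPKM in odd against 10.3 and 1.83 in even controls, and 9.76 and 7.28 against 1.83 and 1.15 in knockouts. The kinases Csnk1d and Csnk1e, which phosphorylate Per proteins, were not counted, with differences of 0.02 and 0.26 in controls and 0.03 and -0.07 in knockouts. Dbp shares exon sequence with the antisense gene Sphk2, which the deposited values cannot part where strand was not used. Sphk2 was itself counted as higher, outside the clock lists.

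Some clock genes did not show the same pattern in both genotypes. Cry1, a repressor that peaks later than the Per genes, had 3.21 and 3.53 FPKM in the odd-numbered and 1.07 and 1.2 in the even-numbered controls, and 1.53 and 1.46 in the odd-numbered and 2.76 and 2.60 in the even-numbered knockouts. It was thus low in even-numbered controls and high in even-numbered knockouts, without overlap in either genotype. Its difference was -1.04 in controls and 0.56 in knockouts (SE 0.10 each), and the genotypes differed by 1.6 (SE 0.14, adjusted p = 0.00635) in limma's interaction test. That call was kept under every alternative in which the gene was tested. Rora, an activator of Arntl, had differences of -0.44 in controls and 0.31 in knockouts. Its interaction of 0.76 (SE 0.13, adjusted p = 0.0432) was lost without any 1 library except control 3 (0.63 to 0.88 over the 8). For Dbp the interaction was -1.98 (SE 0.24, adjusted p = 0.0145). Its odd-numbered knockouts lay above the odd-numbered controls, while the even-numbered libraries of the genotypes overlapped. Among the libraries left out in turn, its call was lost without control 4 (-1.91), knockout 2 (-1.94) or knockout 4 (-2.03).

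The stretches just upstream of 3 clock-linked genes show the letters through which the loop is known to act. They are given 5′ to 3′ on the gene's strand, from RefSeq on GRCm38.p6 (mm10). Ciart, a repressor of the loop, is shown because it was among the counted genes with an E-box near the start (chr3:95882229-95882348, minus strand). It had 0.943 and 0.444 FPKM in odd against 11.2 and 5.47 in even controls, and 4.29 and 3.05 against 11.8 and 13.0 in knockouts. Capitals mark the E-box CACGTG, at 116, 58 and 44 bases before the start. Nfil3 (chr13:52981040-52981159, minus strand) and Leo1 (chr9:75441404-75441523, plus strand) are shown as genes lower in the even numbers. Capitals there mark the ROR element TAGGTCA on either strand, 12 and 63 bases before the RefSeq start. In GENCODE M21 Nfil3 begins further upstream, at chr13:52981073, so its element lies inside the gene there. Leo1, a subunit of an elongation complex, had 11.3 and 9.31 FPKM in odd against 3.90 and 4.2 in even controls, and 9.53 and 8.37 against 3.71 and 3.70 in knockouts.
Ciart: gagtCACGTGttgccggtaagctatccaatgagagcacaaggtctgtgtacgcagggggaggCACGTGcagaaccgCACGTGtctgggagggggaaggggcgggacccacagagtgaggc
Nfil3: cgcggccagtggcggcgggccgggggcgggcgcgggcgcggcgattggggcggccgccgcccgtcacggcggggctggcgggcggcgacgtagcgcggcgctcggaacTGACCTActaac
Leo1: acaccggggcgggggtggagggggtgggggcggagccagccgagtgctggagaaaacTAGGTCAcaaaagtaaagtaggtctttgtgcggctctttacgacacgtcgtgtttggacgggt
Within 250 bases upstream, CACGTG stood in 4 of 15 counted clock-list genes with a RefSeq promoter, against 912 of the 9096 tested genes with one. Beyond the clock lists it stood in 12.4% of higher and 6.15% of lower genes. TAGGTCA stood in 7 of 130 lower genes beyond the clock lists (5.38%), in 0 of 97 higher ones and in 1.96% of all. A match describes letters and shows neither binding nor a cause.

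Beyond the clock lists, the higher genes were led by Tcap, which encodes telethonin, a cap of the muscle Z-disc. Tcap had 92.4 and 67.1 FPKM in the odd-numbered and 396 and 451 in the even-numbered controls, and 99.8 and 121 in the odd-numbered and 328 and 331 in the even-numbered knockouts. All 4 even-numbered libraries lay above all 4 odd-numbered ones, and the difference was 2.41 in controls and 1.58 in knockouts (SE 0.16 each). The gene lies at chr11:98383811-98384953 in mm10. Ppp1r1b, an inhibitor of protein phosphatase on the same stretch of the chromosome (chr11:98348404-98357796), was also higher, with 7.17 and 6.35 FPKM in odd against 14.3 and 18.7 in even controls, and 11.2 and 11.4 against 20.1 and 20.9 in knockouts. Control 4, the library rich in striated muscle RNA, had the highest Tcap. Control 2 had 396 FPKM of Tcap, 0 FPKM of Myh1 and a striated muscle score of 1.30, against a score of 4.17 in control 4. That score was 1.37 and 1.44 in the odd-numbered controls. In knockouts it was 2.06 and 1.16 in odd against 1.09 and 2.08 in even numbers. The mean of both Tcap differences was 1.95 without control 4 and ran from 1.88 to 2.11 over the alternatives run. The part of striated muscle in the Tcap difference was not tested.

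The metallothionein genes Mt1 and Mt2, neighbours on chromosome 8 whose proteins bind zinc and copper, were both higher. Mt1 had 212 and 163 FPKM in odd against 502 and 358 in even controls, and 481 and 343 against 807 and 724 in knockouts. Mt2 had 76.4 and 59.6 FPKM in odd against 208 and 152 in even controls, and 158 and 95.9 against 287 and 272 in knockouts. Neither gene had an overlap between odd and even numbers within a genotype, though the odd-numbered knockouts reached into the range of the even-numbered controls. Mt2 also overlaps the antisense gene Gm45774. The differences were 1.19 in controls and 0.91 in knockouts (SE 0.22 each) for Mt1 and 1.38 in controls and 1.17 in knockouts (SE 0.25 each) for Mt2. Metallothionein genes are classic targets of metals, through metal response elements, and of glucocorticoids. Of 19 glucocorticoid response genes, 3 were higher (Mt1, Mt2 and Map3k6) and 3 lower (Angptl4, Cdkn1a and Pdk4), beside 1.19% and 1.61% of all tested genes. The list medians were 0.07 in controls and -0.18 in knockouts. The control median went to -0.50 without control 2, -0.21 without control 3 and 0.46 without control 4. The knockout median went to 0.04 without knockout 4 and -0.39 without knockout 2.

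The upstream stretches of Mt1 (chr8:94178949-94179088) and Mt2 (chr8:94172478-94172617), both on the plus strand of GRCm38.p6, are shown because both genes were higher in the even numbers. Capitals mark TGCACNC or TGCGCNC, the core of the metal response element, on either strand.
Mt1: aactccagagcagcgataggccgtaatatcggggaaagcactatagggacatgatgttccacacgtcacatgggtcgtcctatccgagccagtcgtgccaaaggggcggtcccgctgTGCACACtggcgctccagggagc
Mt2: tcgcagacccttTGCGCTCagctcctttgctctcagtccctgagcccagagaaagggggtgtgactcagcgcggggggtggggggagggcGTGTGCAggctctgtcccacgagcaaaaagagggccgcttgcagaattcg
The core begins 23 bases before the RefSeq start in Mt1 and 128 and 50 bases before it in Mt2. It is a common string, present in 34.6% of all tested promoters, 37.1% of the higher genes beyond the clock lists and 40.8% of the lower.

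The other named higher genes have less in common. Acan encodes aggrecan, the large proteoglycan of cartilage and of the aortic media, and had 12.2 and 6.92 FPKM in odd against 19.4 and 19.1 in even controls, and 3.44 and 3.18 against 8.35 and 7.22 in knockouts. The even-numbered libraries were higher within each genotype, by 0.99 in controls and 1.03 in knockouts (SE 0.21 each). Of 11 tested chondrocyte and bone genes, Acan and Cytl1 were higher and Comp was lower, beside 1.19% and 1.61% of all tested genes. Cytl1, a secreted cytokine-like protein, had 359 and 349.9 FPKM in odd against 513 and 469.8 in even controls, and 159 and 132 against 249 and 218 in knockouts. Comp, a cartilage oligomeric matrix protein, had 28.9 and 35.7 FPKM in odd against 19.8 and 19.9 in even controls, and 22.8 and 26.9 against 17.5 and 19.6 in knockouts. Ngef, a guanine nucleotide exchange factor, and the Ras-related genes Rasd2 and Rasl10b had differences of 1.02, 1.05 and 1.10 in controls and 0.95, 0.93 and 0.84 in knockouts. Rfx2, a factor of ciliated cells, was less even, with 5.68 and 5.76 FPKM in odd against 14.6 and 7.58 in even controls, and 3.83 and 2.46 against 5.99 and 9.88 in knockouts. Wdr92 overlaps exons of Pno1 and Ppp3r1, so its values may hold fragments of either. It had 85.3 and 80.5 FPKM in odd against 206 and 120.2 in even controls, and 31.0 and 27 against 58.4 and 60.1 in knockouts. Gli1 and Ptch1, chosen after their values were seen as textbook targets of hedgehog signalling, were both counted. Gli1 had 8.89 and 8.89 FPKM in odd against 13.7 and 14.6 in even controls, and 3.79 and 3.70 against 8.0 and 7.78 in knockouts. Ptch1 had 3.16 and 4.25 FPKM in odd against 5.02 and 6.46 in even controls, and 2.47 and 3.22 against 5.98 and 5.51 in knockouts.

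The list of cold-inducible RNA-binding proteins and their partners held a small counted group with both signs. Cirbp, the cold-inducible RNA-binding protein, had 30.8 and 33.1 FPKM in odd against 43.0 and 63.3 in even controls, and 14.7 and 16.9 against 29.6 and 35.0 in knockouts. Even numbers were higher in both genotypes, by 0.69 in controls and 0.98 in knockouts (SE 0.17 each). Of 13 tested genes of the list, Cirbp and Hnrnpdl were counted higher and the splicing factors Sfpq and Tra2a lower. Of all tested genes, 1.19% were higher and 1.61% lower. The list medians were -0.05 in controls and -0.09 in knockouts. Sfpq had 54.0 and 56.0 FPKM in odd against 41.2 and 30.9 in even controls, and 52.8 and 53.6 against 32.8 and 31.4 in knockouts. Hnrnpdl had 42.6 and 40.1 FPKM in odd against 51.9 and 59.4 in even controls, and 35.7 and 29.3 against 53.2 and 56.2 in knockouts. Pecam1, a junction protein of endothelium, was the 1 counted gene of 15 endothelial markers, with 106 and 137 FPKM in odd against 172 and 162 in even controls, and 53.1 and 56.7 against 90.1 and 94.1 in knockouts. The 15 endothelial markers summed to 330.1 and 384 FPKM in the odd-numbered and 417 and 425 in the even-numbered controls, and 191 and 193 against 252 and 259 in the knockouts, so the sum was higher in the even numbers of both genotypes, and its part in the Pecam1 difference was not tested. In whole-vessel RNA a smaller number of cells and less RNA per cell cannot be told apart.

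**Figure D3:**
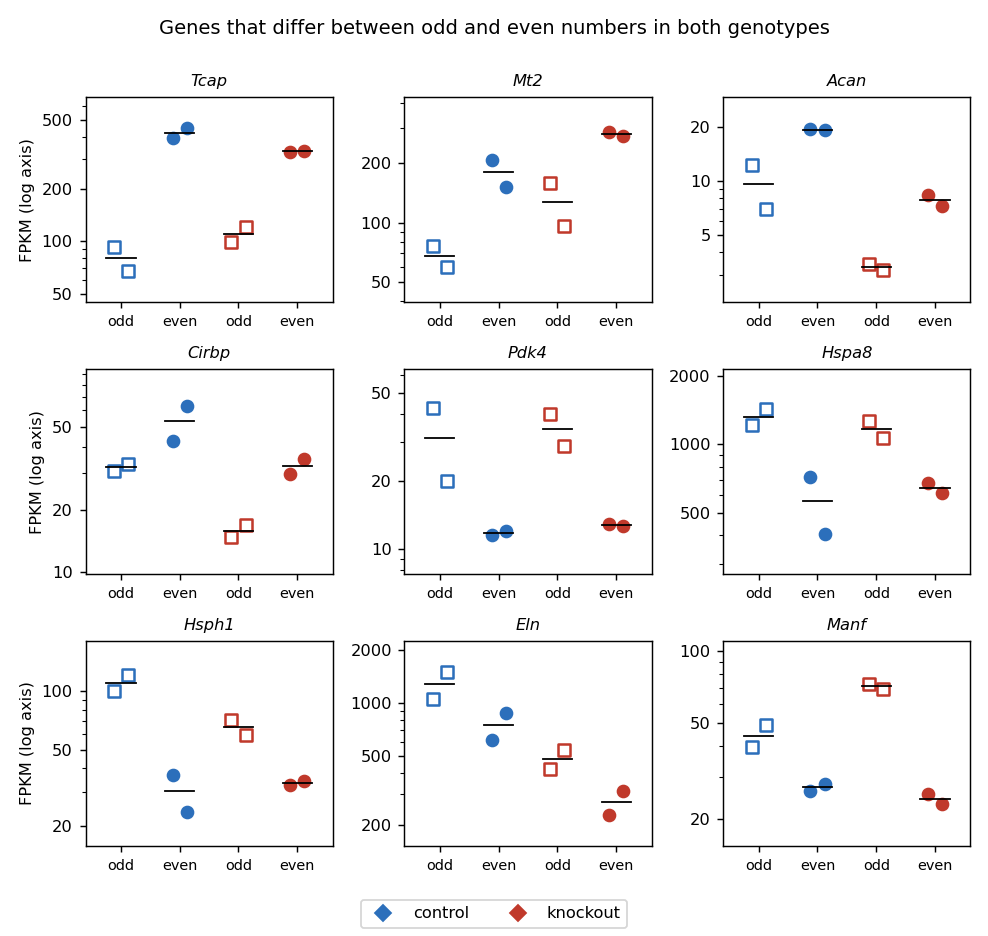
FPKM on log axes of 9 genes in each library, by genotype and by odd (open squares) or even (filled circles) number, with a line at the mean of each pair. Tcap, Mt2, Acan and Cirbp are higher and Pdk4, Hspa8, Hsph1, Eln and Manf lower in the even-numbered libraries of both genotypes, without overlap within a genotype.

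Some cytosolic chaperones, 8 of a list of 24, were counted lower in the even numbers. Hspa8, the constitutive chaperone of its family, had 1212 and 1424 FPKM in the odd-numbered and 722 and 406 in the even-numbered controls, and 1263 and 1070.3 in the odd-numbered and 678 and 612 in the even-numbered knockouts. Hsph1, which exchanges nucleotide on those chaperones, had 100.2 and 121 FPKM in odd against 37.1 and 23.8 in even controls, and 71.0 and 59.7 against 32.7 and 34.6 in knockouts. Both were lower without overlap in either genotype, with -1.28 in controls and -0.85 in knockouts (SE 0.24 each) for Hspa8 and -1.86 in controls and -0.93 in knockouts (SE 0.20 each) for Hsph1. Of 24 heat shock factor targets and chaperones, 8 were counted lower (Hspa1b, Hspa8, Hsph1, Dnaja1, Hsp90aa1, Chordc1, Stip1 and Cacybp) and 0 higher, beside 1.61% and 1.19% of all tested genes. The list's median was -0.67 in controls and -0.27 in knockouts, and with 1 library left out it stayed between -0.77 and -0.52 and between -0.31 and -0.18. Within controls 15 members were at least 0.5 lower without overlap, beside 2.59% of all tested genes, and within knockouts 9 were, beside 4.0%. Stip1, a co-chaperone that joins the HSP70 and HSP90 machines, had 92.6 and 89.2 FPKM in odd against 46.5 and 43.9 in even controls, and 80.4 and 71.0 against 69.4 and 63.8 in knockouts. It was the 1 member whose difference depended on genotype, by 0.81 (SE 0.11, adjusted p = 0.0226), a call lost without any 1 library except knockout 1 (0.72 to 0.90).

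The stress-inducible members were less even. Hspa1b had 65.0 and 119.9 FPKM in odd against 38.9 and 9.01 in even controls, and 21.3 and 27.9 against 11.5 and 9.54 in knockouts, a difference of -2.16 in controls and -1.14 in knockouts (SE 0.58 each). Its near-identical neighbour Hspa1a had 40.2 and 85.8 FPKM in odd against 45.3 and 9.74 in even controls, and 15.3 and 21.7 against 11.3 and 9.31 in knockouts and was not counted, since control 2 lay above control 1. Fragments shared by this pair cannot be assigned with certainty. Dnajb1, Bag3 and Ubb, other targets of heat shock factor, were not counted either.

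The stretches upstream of Hspa1b (chr17:34959239-34959358), Hspa1a (chr17:34972157-34972276) and Hsph1 (chr5:149636337-149636456), all on the minus strand of GRCm38.p6, are shown because Hspa1b and Hsph1 were lower in the even numbers and the Hspa1 pair is nearly the same sequence. Capitals mark TTCNNGAA or GAANNTTC, a pair of the inverted repeats to which heat shock factor is known to bind.
Hspa1b: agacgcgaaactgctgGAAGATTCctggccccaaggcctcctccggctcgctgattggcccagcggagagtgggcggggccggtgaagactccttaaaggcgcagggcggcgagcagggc
Hspa1a: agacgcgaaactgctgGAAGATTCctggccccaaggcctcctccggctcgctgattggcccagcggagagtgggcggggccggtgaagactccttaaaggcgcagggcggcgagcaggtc
Hsph1: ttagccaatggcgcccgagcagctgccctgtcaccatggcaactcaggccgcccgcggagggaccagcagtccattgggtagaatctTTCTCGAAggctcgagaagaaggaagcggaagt
Hspa1b and Hspa1a are identical at 119 of these 120 bases, and the repeat begins 104 bases before the start in both. In Hsph1 it begins 33 bases before the RefSeq start, but GENCODE M21 has the gene begin further upstream, at chr5:149636376, with the repeat inside it. The repeat stood within 250 bases upstream in 3 of 6 counted chaperones with a RefSeq promoter. Beyond the clock lists it stood in 14.6% of lower and 10.3% of higher genes, against 12.3% of all tested promoters.

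Some genes of fasting and lipid handling were lower in the even numbers. Pdk4, the kinase that holds back glucose oxidation, had 42.5 and 20.0 FPKM in odd against 11.5 and 12 in even controls, and 39.9 and 28.8 against 12.9 and 12.6 in knockouts. The even-numbered values were close together and the odd-numbered ones spread, with -1.24 in controls and -1.35 in knockouts (SE 0.31 each). Angptl4, an inhibitor of lipoprotein lipase, had 24.7 and 20.2 FPKM in odd against 4.06 and 8.34 in even controls, and 16.2 and 5.67 against 3.86 and 4.38 in knockouts. Ces1d, a carboxylesterase of fat, had 20.8 and 7.71 FPKM in odd against 4.79 and 4.13 in even controls, and 8.64 and 16.6 against 3.82 and 7.84 in knockouts. Elovl6, a fatty acid elongase and the 1 counted gene of 20 of fatty acid and triglyceride synthesis, had 9.51 and 3.0 FPKM in odd against 1.13 and 1.25 in even controls, and 3.78 and 5.34 against 1.96 and 3.64 in knockouts. In controls 9 genes of that list were at least 0.5 lower without overlap, beside 2.59% of all tested genes. In knockouts 1 was, beside 4.0%. Fat cell markers varied beside these genes. Of 15, 0 were counted, and they summed to 1309.6 and 428 FPKM in the odd-numbered and 484 and 489 in the even-numbered controls, and 404 and 778 against 356 and 530.4 in the knockouts. Control 1 and knockout 3 were the high ones, both odd. Their list median was -0.64 in controls and -0.50 in knockouts. The knockout median went to -0.08 without knockout 3, -0.14 without knockout 2, -1.06 without knockout 1 and -0.86 without knockout 4. The control median went to -1.40 without control 3. The part of fat in these differences was not tested. Of 19 tested genes of fasting and of FoxO factors, 2 were lower (Pdk4 and Angptl4) and 2 higher, among them Fbxo32. Of all tested genes, 1.61% were lower and 1.19% higher. Fbxo32, atrogin, a ubiquitin ligase of muscle, had 33.6 and 32.2 FPKM in odd against 40.5 and 49.2 in even controls, and 29.3 and 29.6 against 44.0 and 47.2 in knockouts.

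Cdkn1a, which inhibits cyclin-dependent kinases and is a target of p53, had 71.5 and 58.4 FPKM in odd against 31.8 and 35.3 in even controls, and 96.4 and 90.2 against 29.6 and 24.4 in knockouts, a difference of -0.93 in controls and -1.76 in knockouts (SE 0.12 each). Ccnd1, cyclin D, which drives entry into the cell cycle, was lower as well, with 9.02 and 9.87 FPKM in odd against 4.19 and 4.94 in even controls, and 11 and 16.4 against 5.87 and 5.70 in knockouts. Of 10 tested cell cycle genes it was the 1 that was counted. Foxs1, a forkhead factor of perivascular cells, had 34.4 and 35.1 FPKM in odd against 15.0 and 22 in even controls, and 17.3 and 21.7 against 9.51 and 11.2 in knockouts. Slc45a3, a sugar transporter, had 7.91 and 8.92 FPKM in odd against 5.36 and 2.70 in even controls, and 5.61 and 5.35 against 3.10 and 1.55 in knockouts. Sterol synthesis had 5 of 23 genes lower, among them Fdps, Idi1, Cyp51 and Pmvk, and 0 higher, beside 1.61% and 1.19% of all tested genes. The medians were -0.22 in controls and -0.25 in knockouts. Fdps, which makes farnesyl diphosphate, had 30.1 and 34.2 FPKM in odd against 18.7 and 18.2 in even controls, and 40.5 and 38.6 against 27.6 and 21.6 in knockouts.

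Most genes of MHC class II, which presents antigen on macrophages and other immune cells, were lower. Cd74, the invariant chain of MHC class II, had 167 and 194 FPKM in odd against 88.5 and 104 in even controls, and 127 and 152 against 96.7 and 105 in knockouts. H2-Ab1, a chain of the class II molecule itself, had 50.4 and 57.4 FPKM in odd against 23.8 and 27.2 in even controls, and 32.2 and 44.2 against 26.6 and 32.2 in knockouts, where the odd and even knockouts came within rounding of each other. Of 6 tested class II genes 5 were lower (H2-Aa, H2-Ab1, H2-Eb1, Cd74 and H2-DMa) and 0 higher, beside 1.61% and 1.19% of all tested genes. The medians were -0.95 in controls and -0.44 in knockouts. Without knockout 2 the knockout median was -0.28. Of 13 tested macrophage markers, 10 lay lower in both genotypes without overlap, beside 9.72% of all tested genes, though 0 met the limit of 0.5. The 13 markers summed to 386 and 423 FPKM in the odd-numbered and 323 and 303 in the even-numbered controls, and 350.4 and 335 against 261 and 268 in the knockouts. The part of macrophages in the class II difference was not tested. The chemokines Ccl2, Ccl7 and Ccl21a were lower among 12 chemokines and cytokines, beside 1.61% of all tested genes. Their levels were low. Ccl2, which draws monocytes, had 0.548 and 1.64 FPKM in odd against 0.348 and 0.384 in even controls, and 0.973 and 3.74 against 0.0702 and 0.845 in knockouts. Its mean difference of -0.84 was -0.53 without knockout 3.

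Matrix genes that were lower in both genotypes belonged to elastic fibres, collagens and their enzymes. Eln, elastin, had 1049.9 and 1506 FPKM in the odd-numbered and 615 and 876 in the even-numbered controls, and 419 and 538 in the odd-numbered and 228 and 312 in the even-numbered knockouts. The even-numbered values were the lower ones within each genotype, with differences of -0.78 in controls and -0.83 in knockouts (SE 0.25 each), while the even-numbered controls lay above the odd-numbered knockouts. Lox, which crosslinks elastin and collagen, had 88.3 and 87.3 FPKM in odd against 53.5 and 52.2 in even controls, and 65.1 and 57.0 against 24.5 and 26.6 in knockouts. Efemp1, a fibulin, had 22.5 and 21.3 FPKM in odd against 15.9 and 11 in even controls, and 21.2 and 17.6 against 14.6 and 13.9 in knockouts. These were 3 of 21 elastic fibre genes, with 0 higher, beside 1.61% and 1.19% of all tested genes. The list medians were -0.09 in controls and -0.18 in knockouts. The control median turned to 0.02 without control 3 and was -0.15 without control 1. Of 30 collagens and collagen-modifying enzymes, 5 were lower (Col5a3, Col8a1, Col14a1, P4ha1 and Serpinh1) and 0 higher, beside 1.61% and 1.19% of all tested genes. Col8a1 met the limit through the knockouts, with differences of -0.11 in controls and -2.01 in knockouts (SE 0.14 each). P4ha1, a prolyl hydroxylase of collagen, had 49.4 and 51.9 FPKM in odd against 30.2 and 26.5 in even controls, and 41.1 and 32.2 against 22.1 and 20.8 in knockouts. Col5a3, a minor fibrillar chain, had 3.23 and 3.58 FPKM in odd against 1.15 and 1.58 in even controls, and 2.14 and 2.35 against 0.907 and 0.999 in knockouts. The main fibrillar chain Col1a1 differed by 0.00 in controls and -0.39 in knockouts (SE 0.13 each) and was not counted. Col14a1, a collagen of the adventitia, had 38.4 and 49.1 FPKM in odd against 22.5 and 25.7 in even controls, and 48.1 and 50.1 against 36.3 and 33.4 in knockouts. It and Lum, which encodes the proteoglycan lumican, were the 2 counted of 12 adventitial fibroblast markers, both lower, beside 1.61% of all tested genes. Lum had 62.7 and 57.8 FPKM in odd against 43.9 and 49.4 in even controls, and 100.3 and 81.1 against 44.4 and 63.3 in knockouts. The 12 markers of those cells summed to 2367 and 2569 FPKM in the odd-numbered and 2018 and 2066 in the even-numbered controls, and 2033 and 1736 against 1565 and 1602 in the knockouts, and their part in these differences was not tested. Among 18 matrix proteases and inhibitors, Adamts8, Adamts15 and Adamts4, which cut proteoglycans, were lower, beside 1.61% of all tested genes. Adamts8 had 14.5 and 18.0 FPKM in odd against 8.62 and 9.42 in even controls, and 11.6 and 10.5 against 6.23 and 6.40 in knockouts.

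Chaperones of the endoplasmic reticulum included 5 that were lower in both genotypes. Manf, a secreted protein induced by unfolded proteins, had 39.8 and 48.9 FPKM in the odd-numbered and 26.2 and 27.9 in the even-numbered controls, and 73.0 and 69.4 in the odd-numbered and 25.5 and 23.2 in the even-numbered knockouts. The odd-numbered knockouts were the high ones and the even-numbered knockouts lay just below the even-numbered controls. Of 24 tested genes the 5 lower ones were Manf, Sdf2l1, Xbp1, Creld2 and Hyou1, and 0 were higher, beside 1.61% and 1.19% of all tested genes. The median was -0.09 in controls and -0.44 in knockouts. In controls 2 members were at least 0.5 lower without overlap, beside 2.59% of all tested genes. In knockouts 10 were, beside 4.0%. Hspa5 (BiP), the main chaperone there, had 288 and 349 FPKM in odd against 261 and 294 in even controls, and 519.6 and 476 against 263 and 206 in knockouts. The difference depended on genotype for 3 members, each more negative in knockouts, beside 0.999% of all tested genes. Manf had an interaction of -0.82 (SE 0.15, adjusted p = 0.0462). Xbp1, a factor that drives this response, had an interaction of -0.70 (SE 0.11, adjusted p = 0.0343). Pdia4, a disulfide isomerase, had an interaction of -0.60 (SE 0.11, adjusted p = 0.0482). Manf was lost without any 1 library except control 3 (-0.97 to -0.68), Xbp1 likewise (-0.79 to -0.61), and Pdia4 without any of the 8 (-0.68 to -0.52).

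Many lists held no counted gene in either direction. Among them were 45 cytosolic ribosomal proteins, 33 genes of oxidative phosphorylation, 27 of the proteasome, 30 of the lysosome, 32 of secretory transport, 23 of autophagy and 21 of fatty acid oxidation. Their medians lay within -0.17 to 0.15 in controls and within -0.04 to 0.09 in knockouts. Small differences of 1 sign did occur within a genotype: 26 of the 33 oxidative phosphorylation genes were lower without overlap in controls, beside 22% of all tested genes, against 4 in knockouts, beside 27.1%. Of 27 proteasome genes, 16 were higher without overlap in knockouts, beside 32.6% of all tested genes, against 1 in controls, beside 30.0%. Autophagy leaned the same way in both genotypes. Of its 23 genes, 13 were higher without overlap in controls and 11 in knockouts, beside those same shares. In both genotypes 8 were higher, beside 14.9% of all tested genes, and 1 was lower, beside 9.72%.

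**Figure D4:**
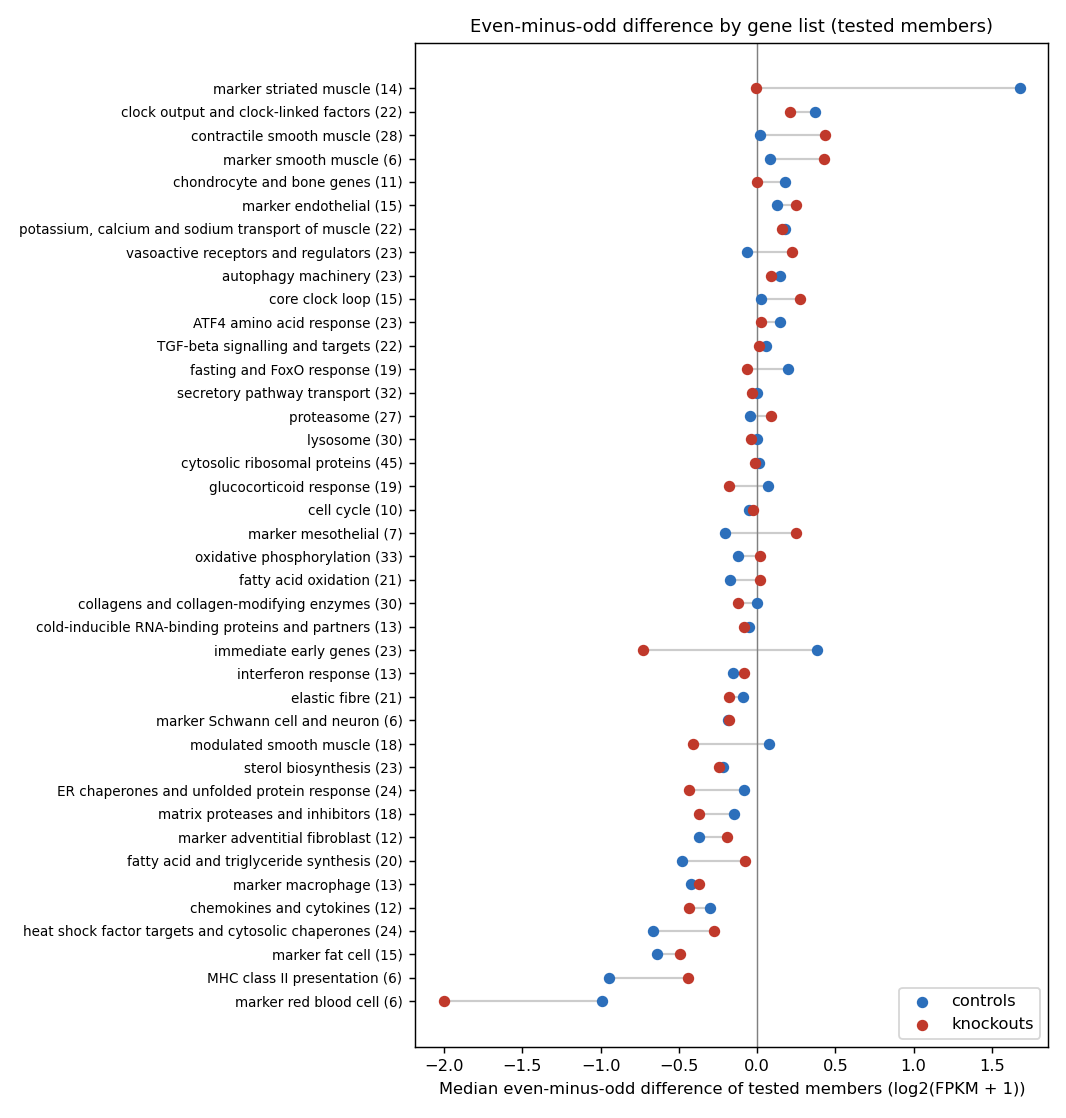
Median even-minus-odd difference, on the log2(FPKM + 1) scale, of the tested members of 40 gene lists in controls (blue) and knockouts (red), with the number of members in brackets. Heat shock, MHC class II, fat cell and macrophage lists lie left of 0 in both genotypes, while contractile genes have medians of 0.02 and 0.44 and modulated genes of 0.08 and -0.41.

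The even-minus-odd difference depended on genotype for 196 of 12107 genes (1.62%) in limma's interaction test at an adjusted p under 0.05. It was more positive in knockouts for 75 (0.619%) and more negative for 121 (0.999%), and 2010 genes had an unadjusted p under 0.05. Of the 196 genes, 112 were at least 0.5 apart without overlap in the knockouts only, 34 in the controls only, 13 in both, of which 10 in opposite directions, and 37 in neither. For 122 of them the mean of the even-numbered knockouts lay between that of the odd-numbered knockouts and both control means, and for 18 it lay within the control means while the odd-numbered knockouts were outside. The reverse arrangement, with the odd-numbered knockouts nearer to the controls, held for 11 and 11. The number of calls was smaller without any 1 library, between 32 (without knockout 4) and 107 (without control 2). It was 82, 80 and 68 without controls 1, 3 and 4, and 75, 38 and 65 without knockouts 1, 2 and 3.

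Of 28 contractile genes, 4 had a more positive difference in knockouts and 0 a more negative one, beside 0.619% and 0.999% of all tested genes. At an unadjusted p under 0.05 in limma's interaction test there were 22, beside 2010 of all 12107 tested genes. Des, desmin, an intermediate filament of muscle, had 40.2 and 38.7 FPKM in the odd-numbered and 35.1 and 33.2 in the even-numbered controls, and 15.1 and 13.6 in the odd-numbered and 27.1 and 26.2 in the even-numbered knockouts. The odd-numbered knockouts were the lowest and the even-numbered ones lay between them and the controls. Its interaction was 1.05 (SE 0.10, adjusted p = 0.00687) and was kept under every alternative run. Synpo2, an actin-bundling protein, had 158 and 163 FPKM in odd against 131 and 144 in even controls, and 69.9 and 84.4 against 122 and 137 in knockouts, with an interaction of 0.96 (SE 0.15, adjusted p = 0.0313). Ppp1r12b, a subunit of myosin phosphatase, had 36.5 and 34.5 FPKM in odd against 30.3 and 32.4 in even controls, and 18.2 and 21.6 against 29.9 and 28.6 in knockouts, with an interaction of 0.71 (SE 0.13, adjusted p = 0.0463). Vcl, vinculin, which ties actin to the membrane, had 191 and 202 FPKM in odd against 146 and 155 in even controls, and 146 and 152 against 158 and 163 in knockouts, with an interaction of 0.49 (SE 0.09, adjusted p = 0.0463). The calls of Synpo2 and Ppp1r12b were lost without any 1 library except knockout 3 (0.83 to 1.10 and 0.60 to 0.83). That of Vcl was lost without any of the 8 (0.45 to 0.53). It was also lost under quantile scaling, with no filter on level, without a trend and with the library number as a block. Over the list, 27 of 28 genes were higher in the even-numbered knockouts without overlap, beside 32.6% of all tested genes, against 6 of 28 in controls, beside 30.0%. By at least 0.5 the counts were 10 in knockouts, beside 2.71% of all tested genes, and 0 in controls, beside 2.38%. The median was 0.02 in controls and 0.44 in knockouts. The list score, a mean of log2(FPKM + 1), was 8.53 and 8.53 in odd-numbered and 8.51 and 8.51 in even-numbered controls, and 7.85 and 7.82 against 8.32 and 8.28 in knockouts. The interaction did not pass for the defining genes of the cell type. Myh11, smooth muscle myosin, had 1608 and 1736 FPKM in odd against 1688 and 1831 in even controls, and 777 and 850.1 against 1263 and 1220.4 in knockouts (adjusted p = 0.0649). Acta2, smooth muscle actin, had 8223 and 8090.0 FPKM in odd against 7196 and 7126 in even controls, and 5745 and 6167 against 6966 and 6384 in knockouts (adjusted p = 0.145).

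Of 18 genes linked to modulated smooth muscle, 6 had interactions of the other sign, beside 0.999% of all tested genes. Spp1, osteopontin, a secreted matrix phosphoprotein, had 0.924 and 0.492 FPKM in the odd-numbered and 1.51 and 2.56 in the even-numbered controls, and 61.3 and 63.6 in the odd-numbered and 18.4 and 15.5 in the even-numbered knockouts. All 4 knockouts lay above all 4 controls, the odd-numbered ones highest. Its interaction was -2.65 (SE 0.26, adjusted p = 0.00731), lost without knockout 4 (-2.53). Those with a more negative difference in knockouts were Spp1, Mgp, Vcam1, Tnfrsf11b, Col8a1 and Lgals3, and 0 had a more positive one. Mgp, an inhibitor of calcification, had 3431 and 3527 FPKM in odd against 6061 and 5469.5 in even controls, and 15554 and 15034 against 10294 and 11337 in knockouts, with an interaction of -1.23 (SE 0.11, adjusted p = 0.00635). The even numbers were thus higher in controls and the odd ones in knockouts, and the call was lost only with no filter on level. Tnfrsf11b, osteoprotegerin, had 6.35 and 6.38 FPKM in odd against 7.2 and 6.22 in even controls, and 54.3 and 59.0 against 26.6 and 32.5 in knockouts, with an interaction of -0.99 (SE 0.15, adjusted p = 0.0343), a call lost without any of the 8 libraries (-1.13 to -0.84). Vcam1, an adhesion molecule, had 14.3 and 19.1 FPKM in odd against 22 and 18.8 in even controls, and 75.9 and 98.4 against 32.3 and 33.7 in knockouts, with an interaction of -1.65 (SE 0.23, adjusted p = 0.0226). Col8a1, a short-chain collagen, had 3.28 and 2.83 FPKM in odd against 2.75 and 2.76 in even controls, and 13.3 and 17.7 against 2.83 and 3.30 in knockouts, with an interaction of -1.91 (SE 0.20, adjusted p = 0.00786). The even-numbered knockouts overlapped the controls in Col8a1, and its call was lost without knockout 2 (-1.82) or knockout 4 (-1.99). The Vcam1 call was lost without any 1 library except control 3 and knockout 1 (-1.85 to -1.45). Lgals3, galectin, had 15.9 and 19.4 FPKM in odd against 27 and 28.5 in even controls, and 65.8 and 72.9 against 49.3 and 37.8 in knockouts, with an interaction of -1.30 (SE 0.20, adjusted p = 0.0310), a call lost without any 1 library except knockout 2 (-1.49 to -1.11). The list medians were 0.08 and -0.41. Smooth muscle markers varied beside both lists. The 6 defining genes summed to 17494 and 17590.1 FPKM in the odd-numbered and 17199.5 and 17286 in the even-numbered controls, and 11279 and 12026 against 15078 and 13932 in the knockouts. The part of smooth muscle content in the list differences was not tested.

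**Figure D5:**
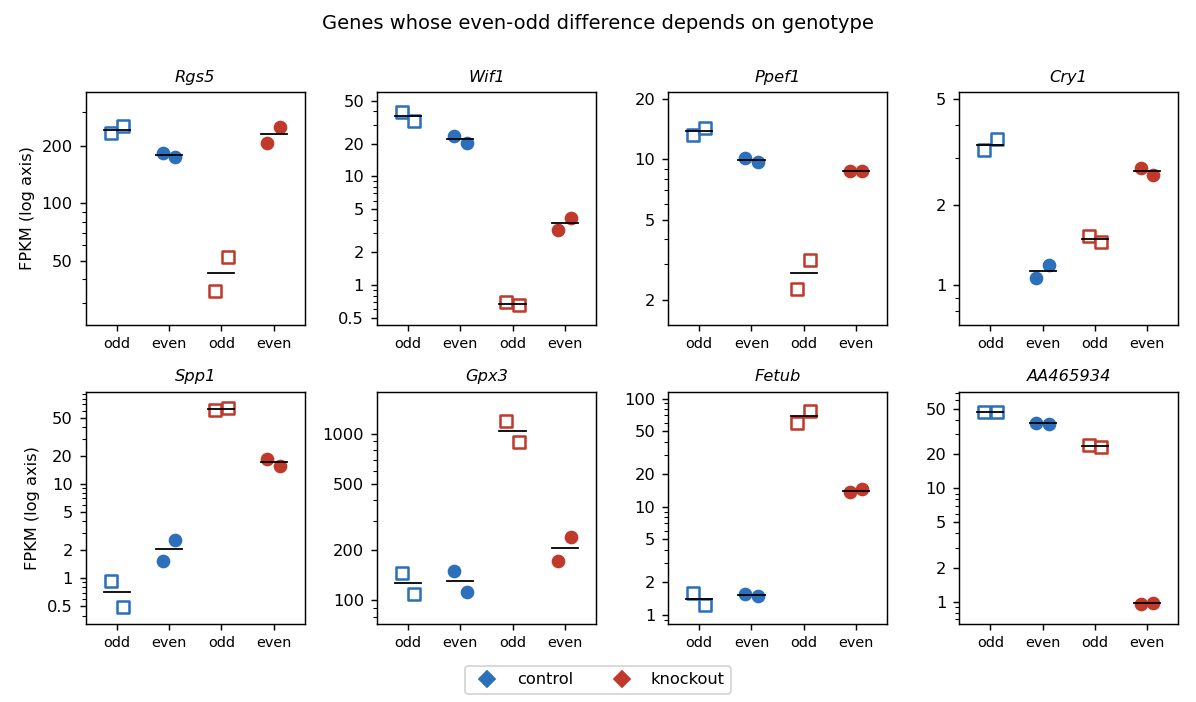
FPKM on log axes of 8 genes whose even-minus-odd difference depended on genotype, by genotype and by odd (open squares) or even (filled circles) number, with a line at the mean of each pair. Rgs5, Wif1 and Ppef1 are lowest and Spp1, Gpx3 and Fetub highest in the odd-numbered knockouts, while Cry1 goes opposite ways in the genotypes and AA465934 is near 1 FPKM only in the even-numbered knockouts.

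Among genes that averaged 5 FPKM or more, the most positive interactions after that of the small RNA row Mir1901 were those of Rgs5 and Wif1. Rgs5, a brake on G protein signalling in pericytes and arterial smooth muscle (chr1:169655501-169695813 in mm10), had 232 and 253 FPKM in the odd-numbered and 182 and 174 in the even-numbered controls, and 34.6 and 51.9 in the odd-numbered and 206 and 252 in the even-numbered knockouts. The even-numbered knockouts were within the range of the controls and the odd-numbered ones far below. The interaction was 2.84 (SE 0.25, adjusted p = 0.00635). Wif1, a secreted Wnt inhibitor (chr10:121033960-121100650), had 39.6 and 32.7 FPKM in odd against 23.6 and 20.3 in even controls, and 0.693 and 0.648 against 3.22 and 4.16 in knockouts. All 4 knockouts were below all 4 controls, and the interaction was 2.17 (SE 0.19, adjusted p = 0.00635). Ppef1, a calcium-binding phosphatase (chrX:160623094-160735765), had 13.2 and 14.4 FPKM in odd against 10.1 and 9.71 in even controls, and 2.25 and 3.15 against 8.77 and 8.78 in knockouts, with an interaction of 1.85 (SE 0.16, adjusted p = 0.00635). The calls of Rgs5, Wif1 and Ppef1 were kept under every alternative. Tceal6, a gene named for likeness to an elongation factor, had 18.6 and 26.7 FPKM in odd against 18.6 and 19.3 in even controls, and 5.18 and 4.79 against 12.3 and 15.6 in knockouts, with an interaction of 1.54 (SE 0.24, adjusted p = 0.0329). That call was lost without any 1 library except control 1 (1.29 to 1.79). Casq1, which binds calcium in muscle stores, had 68.1 and 79.3 FPKM in odd against 55.7 and 61.2 in even controls, and 1.64 and 2.92 against 6.35 and 5.94 in knockouts, with an interaction of 1.48 (SE 0.25, adjusted p = 0.0419). Npr3, the clearance receptor for natriuretic peptides, had 4.98 and 5.87 FPKM in odd against 2.32 and 1.47 in even controls, and 4.66 and 4.82 against 6.03 and 7.35 in knockouts, with an interaction of 1.58 (SE 0.22, adjusted p = 0.0233). Gucy1b3, a subunit of the nitric oxide receptor, had 83.5 and 82.7 FPKM in odd against 79.0 and 75.7 in even controls, and 50.3 and 49.1 against 69.9 and 69.3 in knockouts, with an interaction of 0.58 (SE 0.08, adjusted p = 0.0202). Casq1 was lost without any 1 library except knockouts 1 and 3 (1.19 to 1.76), and Npr3 (1.36 to 1.79) and Gucy1b3 (0.55 to 0.61) without any 1 except control 2.

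Among genes at that level, the most negative interactions after that of the small RNA row Snora65 began with AA465934, a non-coding gene (chr11:83291699-83294632). It had 47.5 and 47.5 FPKM in the odd-numbered and 38 and 37.1 in the even-numbered controls, and 24.1 and 23.1 in the odd-numbered and 0.961 and 0.974 in the even-numbered knockouts. The even-numbered knockouts stood near 1 FPKM and the other 6 libraries at 23.1 or above, and the interaction was -3.31 (SE 0.08, adjusted p = 1.00e-05). Gpx3, a secreted glutathione peroxidase, had 146 and 109 FPKM in odd against 150.0 and 112 in even controls, and 1195 and 888 against 173 and 241 in knockouts, with no separation in controls and an interaction of -2.37 (SE 0.33, adjusted p = 0.0226) that was lost on leaving out any 1 library (-2.61 to -2.13). Fetub, a secreted fetuin (chr16:22918334-22939778), had 1.58 and 1.24 FPKM in odd against 1.56 and 1.48 in even controls, and 59.9 and 77.3 against 13.6 and 14.6 in knockouts, with an interaction of -2.26 (SE 0.18, adjusted p = 0.00635). Gpr176, an orphan receptor known from the brain's clock (chr2:118277110-118373419), had 0.430 and 0.555 FPKM in odd against 0.377 and 0.693 in even controls, and 19.4 and 19.5 against 4.11 and 3.42 in knockouts, with an interaction of -2.14 (SE 0.18, adjusted p = 0.00635). Atp1b1, the beta subunit of the sodium pump, had 9.13 and 10.6 FPKM in odd against 14.4 and 13.8 in even controls, and 138 and 121 against 69.1 and 63.5 in knockouts, with an interaction of -1.44 (SE 0.13, adjusted p = 0.00687). AA465934, Fetub, Gpr176 and Atp1b1 kept their calls under every alternative. Mmp2, a gelatinase, had 33.5 and 40.7 FPKM in odd against 33.1 and 34.7 in even controls, and 74.7 and 74.6 against 27.1 and 28 in knockouts, with an interaction of -1.29 (SE 0.13, adjusted p = 0.00769). Mmp14, the membrane protease that activates it, had 37.6 and 37.8 FPKM in odd against 40.3 and 41.5 in even controls, and 57.1 and 64.0 against 37.5 and 37.9 in knockouts, with an interaction of -0.78 (SE 0.10, adjusted p = 0.0158). Mmp2 was lost without knockout 2 (-1.26) or knockout 4 (-1.31), and Mmp14 without control 1, 3 or 4 or knockout 2 or 4 (-0.86 to -0.70).

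Sox9 and Tgfb1 differed within the controls as well. Sox9, the master factor of cartilage, had 1.37 and 1.6 FPKM in odd against 3.02 and 3.96 in even controls, and 7.47 and 9.85 against 5.6 and 6.70 in knockouts, with an interaction of -1.27 (SE 0.22, adjusted p = 0.0462). Tgfb1, a growth factor that drives matrix synthesis, had 20.7 and 22.9 FPKM in odd against 36.4 and 38.4 in even controls, and 44.0 and 49.5 against 42.9 and 40.2 in knockouts, with an interaction of -0.92 (SE 0.12, adjusted p = 0.0179). In both, even-numbered controls lay above odd-numbered ones and even-numbered knockouts below odd-numbered ones. The Sox9 call was lost on leaving out any 1 library (-1.45 to -1.09), and that of Tgfb1 without control 1 or 4 or knockout 2, 3 or 4 (-1.0 to -0.83). Leprel1, a prolyl hydroxylase of collagen, had 30.2 and 27.5 FPKM in odd against 37.9 and 30.4 in even controls, and 50.9 and 52.3 against 33.2 and 33.1 in knockouts, with an interaction of -0.85 (SE 0.15, adjusted p = 0.0432), lost without any 1 library except control 4 (-1.01 to -0.70). Lipa, the acid lipase of lysosomes, had 19.3 and 19.4 FPKM in odd against 22.4 and 22.9 in even controls, and 47.0 and 44.8 against 36.9 and 37.9 in knockouts. Its interaction was -0.50 (SE 0.08, adjusted p = 0.0401 in limma). That call was lost without any of the 8 (-0.54 to -0.47), under quantile scaling, without a trend and with the library number as a block. The small RNA rows Mir1901 and Snora65 stood at either end of the interactions of named genes. Mir1901 was listed at 239.7 and 105 FPKM in controls 1 and 3 and at 0 in the other 6 libraries, with an interaction of 7.32 (SE 0.45, adjusted p = 0.00221). Snora65, which lies inside Rpl12, had 0 and 4.38 FPKM in odd against 18.9 and 20.6 in even controls, and 15.3 and 9.36 against 0 and 0 in knockouts, with an interaction of -6.86 (SE 0.94, adjusted p = 0.0217). Division by so short a length makes the FPKM of each fragment large, so both are given as listed values only. The Snora65 call was lost without control 2 or 4 or any 1 knockout (-8.07 to -5.65).

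Immediate early genes, which switch on within minutes of a stimulus or of handling, held 0 counted genes and 0 interaction calls in limma. Of 23 tested, 8 had an unadjusted interaction p under 0.05, beside 2010 of all 12107 tested genes. Egr1, a zinc finger transcription factor, had 20.7 and 26.1 FPKM in the odd-numbered and 79.8 and 41.6 in the even-numbered controls, and 27.1 and 121 in the odd-numbered and 19.2 and 20.8 in the even-numbered knockouts. Fos had 4.13 and 9.03 FPKM in odd against 24.4 and 10.1 in even controls, and 8.05 and 154 against 6.04 and 4.29 in knockouts. Control 2 and knockout 3 were the high libraries, an even and an odd number. Of 23 tested genes 8 were at least 0.5 higher without overlap in controls, beside 2.38% of all tested genes. In knockouts 12 were at least 0.5 lower without overlap, beside 4.0%. The medians were 0.38 in controls and -0.73 in knockouts. The control median was -0.04 without control 2 and 0.80 without control 4, and the knockout median -0.20 without knockout 3 and -1.33 without knockout 1. The list score was 5.13 in control 2 and 4.98 in knockout 3, against 3.58 to 4.12 in the other 6 libraries. Some other counted genes belonged to lists with 1 such member. Gdf15, a stress cytokine in the list of 23 genes of the ATF4 amino acid response, was lower, with 1.46 and 2.41 FPKM in odd against 0.901 and 1.32 in even controls, and 25.6 and 57.6 against 8.67 and 7.29 in knockouts. Ptgir, the prostacyclin receptor, was higher among 23 vasoactive receptors and regulators, with 1.49 and 1.74 FPKM in odd against 1.85 and 4.67 in even controls, and 1.24 and 1.96 against 2.0 and 2.87 in knockouts. Its mean difference of 0.51 fell below the limit of 0.5 without control 4 (0.27), knockout 1 (0.41), knockout 4 (0.42) or control 1 (0.48). S100b, a marker of Schwann cells, was lower among 6 tested markers of nerve, with 6.19 and 4.54 FPKM in odd against 2.60 and 3.01 in even controls, and 5.04 and 4.73 against 2.45 and 2.53 in knockouts. Tnnt3, a troponin of fast skeletal muscle, was the 1 counted of 14 striated muscle markers, with 1.94 and 2.68 FPKM in odd against 3.41 and 52.7 in even controls, and 0.915 and 1.43 against 1.66 and 2.66 in knockouts. Its mean difference of 1.38 went to 0.48 without control 4 and 2.28 without control 2. Without control 4 the control median of those markers went from 1.68 to -0.12, and without control 2 to 3.37.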

How the data were processed

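The values are those of a deposited table of FPKM for 23993 genes in 8 libraries, made by the authors with TopHat2, Cufflinks and Cuffdiff on mm10, per the submitters' processing notes, which give no versions or parameters here. Libraries were made by polyA selection from 500 ng of RNA whose RIN was above 7, per the labels' protocols. FPKM keep no fragment counts, so no count test was used. Genes averaging 1 FPKM or more (12107) were analysed as log2(FPKM + 1). SEs and the genotype-by-number interaction came from limma 3.58.1 under R 4.3.3 (eBayes, trend allowed, two-sided tests, Benjamini-Hochberg adjustment over all tested genes, called at an adjusted p under 0.05), and other values from Python 3.11.15. The model was tested on simulated data. The division of the libraries, the gene lists and the rules were chosen with earlier results of these data known. Named beyond the clock lists were, at a mean of at least 5 FPKM, the 10 higher and 10 lower genes ranked by the smaller of their 2 within-genotype differences, and the 6 most positive and 6 most negative interactions, then up to 4 counted and 4 called genes a list, the core loop and Tsc1. Hspa1a, Dnajb1, Bag3, Ubb, Col1a1, Hspa5, Myh11, Acta2, Myh1, Egr1, Fos, Gli1, Ptch1, Igfbp2, Igf1 and Mdk were named after their values were seen. A few genes that the rule names are not reported here. Gene positions are from GENCODE M21 (mm10, 109 of 111 named genes matched), and promoter sequences from RefSeq on GRCm38.p6, found for 9096 of the tested genes. The FPKM give no strand, so overlapping antisense genes are not resolved. The alternatives were another pseudocount (0.1), other filters on level, both scalings, eBayes without a trend, the library number as a block, and each library left out. Losses given beside a gene are those with a library left out, unless another setting is named. With the library number as a block, Dbp, Rora, Ppp1r12b, Vcl, Lgals3, Tnfrsf11b, Leprel1, Manf, Pdia4, Lipa, Tceal6, Snora65, Npr3 and Gucy1b3 lost the call. Without a trend, Rora, Ppp1r12b, Vcl, Sox9, Leprel1, Manf, Xbp1, Pdia4, Lipa and Casq1 did. Some calls were lost with no filter on level as well.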

Additional observations from a re-analysis of the deposited data

Results flagged for a closer look

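In 304 groups of 4 libraries of 1 genotype, the highest or lowest library was compared with the others, and 9 stood apart by the gap to its nearest neighbour over the range. For 4 values drawn from 1 normal distribution, chance alone flags about 1 in 20 such groups. Many groups here belong to genes named for their even-odd values, so that rate cannot be set against the 9. Among controls these were Tnnt3 at 52.7 FPKM and the striated muscle score at 4.17, both in control 4, with scores of 1.30 to 1.44 in the other controls. Ptgir stood at 4.67 FPKM in control 4, where the other controls had 1.49 to 1.85. Ccl2 stood at 1.64 FPKM and Tceal6 at 26.7 in control 3, and Col8a1 at 3.28 in control 1. Among knockouts these were Angptl4 at 16.2 FPKM in knockout 1 and Csnk1e, a clock kinase, at 40.2 FPKM in the same library. The score of T, B and NK cell markers, of which 2 of 13 genes were tested, stood at 1.75 in knockout 3.

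The even-minus-odd difference depended on genotype in limma's interaction test for genes named for size, on the log2(FPKM + 1) scale. It was more positive in knockouts for Mir1901 (7.32), Rgs5 (2.84), Wif1 (2.17), Ppef1 (1.85) and Tceal6 (1.54). It was more negative for Snora65 (-6.86), AA465934 (-3.31), Spp1 (-2.65), Gpx3 (-2.37), Fetub (-2.26) and Gpr176 (-2.14).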

How the results depend on the processing

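The 196 interaction genes became 92 with no filter on level and 99 with the library number as a replicate block, where 79 were called in both fits, and 32 to 107 with each library left out in turn, which leaves 1 group with a lone library that is assumed to vary like the others. The numbers did not pair the libraries throughout. The deviations from group means of same-numbered libraries correlated across genes at 0.0656, 0.138, 0.135 and 0.173. Controls 1 and 3 correlated best with knockouts 3 (0.141) and 1 (0.149), and controls 2 and 4 with knockouts 2 (0.138) and 4 (0.173). Of 36 named interaction genes, 10 kept the call under all alternatives, 22 kept it with the block, Dbp not among them (-1.98, adjusted p = 0.0547 in limma), and 0 reversed. The 144 higher genes became 93 at a mean of at least 5 FPKM, 233 with a pseudocount of 0.1, 1800 with no limit on size and 14 with a limit of 1, and 142 to 188 with 1 library left out. The 195 lower genes became 312 with that pseudocount, 1177 and 26 with those limits, and 208 to 276 with 1 library left out. Leaving out a library eases the rule of no overlap, so these counts can rise for that reason and do not show how stable the genes are. None of 69 named counted genes changed sign, and 12 moved by more than the spread. Leaving out 1 library took 11 of the 69 below the limit of 0.5, among them Tra2a, Fbxo32, Cyp51, Lum, Comp, Efemp1, Adamts4, Ptgir and Tnnt3. Absolute depth is unknown, so that precision at low levels cannot be stated. With 2 libraries a group and no label for the numbers, what separates them cannot be told from these data.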

Other observations

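The genes Igfbp2, Igf1 and Mdk belong to no list above and were chosen after their values were seen. Igfbp2, which binds insulin-like growth factors, had 80.2 and 66.7 FPKM in odd against 43.3 and 52.4 in even controls, and 26.7 and 88.5 against 5.67 and 6.52 in knockouts. Its even-numbered libraries were lower in both genotypes, with differences of -0.61 in controls and -2.81 in knockouts (SE 0.46 each). Its interaction did not pass (adjusted p = 0.155 in limma). Igf1, one of those factors, had 6.10 and 5.59 FPKM in odd against 4.04 and 4.42 in even controls, and 11.5 and 11.3 against 3.94 and 3.95 in knockouts, with an interaction of -0.94 (SE 0.11, adjusted p = 0.0130) in limma, a call lost without control 4 or any 1 knockout (-0.99 to -0.88 over the 8 libraries left out). Mdk, midkine, a heparin-binding growth factor, had 31.5 and 31.0 FPKM in odd against 20.5 and 24.3 in even controls, and 107 and 111 against 29.3 and 28.2 in knockouts. The odd-numbered knockouts were the high ones in Mdk, and the even-numbered knockouts overlapped the controls, with an interaction of -1.42 (SE 0.12, adjusted p = 0.00635) in limma, kept under every alternative.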
